A study of Homo sapiens with 12 samples.

Results

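The genes described here are the D-type cyclins CCND1, CCND2 and CCND3 and the kinases they switch on, CDK4 and CDK6, chosen by gene symbol in the series' RNA, splicing and chromatin tables. Of the 5 genes, 4 have a row among the 19460 genes of the RNA table. RNA and splicing of CCND2 were not analysed here. The splicing tables list 36 events for 3 of the genes among 145447 events in all, and 17 of 38121 chromatin peaks lie within 10 kb of the 5 loci. The material is T-47D, an established luminal, oestrogen receptor positive human breast cancer cell line, labelled wild type and grown in medium with fetal bovine serum. One group received 1 µM palbociclib and the other the solvent DMSO, both for 24 h, and the chromatin libraries' label gives 0.1% DMSO for the control. Each group has 3 poly(A) RNA libraries and 3 ATAC-seq libraries, 12 in all, and the ATAC-seq labels call them biological replicates. For the RNA libraries, which are numbered only, p-values measure the spread between these samples, which may be technical. A single cell line, dose and time were studied.

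D-type cyclins bind CDK4 or CDK6, and the active complex phosphorylates the retinoblastoma protein RB1, which releases E2F transcription factors and lets the cell enter S phase. The cyclins are short-lived proteins whose genes respond to mitogens and, in luminal breast cells, to oestrogen, and CCND1 is a well known oncogene of breast cancer. Palbociclib occupies the ATP pocket of CDK4 and CDK6, so the genes followed here encode the drug's targets and their partners.

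RNA levels are FPKM (fragments per kilobase of transcript, scaled to library size), a unit that is scaled by length and so lets genes be compared within a library. No read totals come with FPKM, so the total depth of the RNA libraries is unknown. The ATAC-seq counts in peaks summed to 12830062 to 18250496 per library. All 9 luminal markers were above 1 FPKM on average, and their summed level was 5593 to 6118 FPKM in DMSO and 7516 to 8296 FPKM with palbociclib. Endothelial markers had no row. Basal and leukocyte markers were each below 1 FPKM or had no row, and summed to 0.043 to 0.113 and 1.00 to 1.59 FPKM in DMSO and to 0.065 to 0.110 and 1.01 to 1.22 FPKM with palbociclib. Of 6 fibroblast markers only COL1A1, at 24.4 FPKM, was above 1 FPKM, and the list summed to 23.9 to 25.3 FPKM in DMSO and 24.8 to 27.1 FPKM with palbociclib. The part of these markers in the results was not tested.

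Of the 4 measured members, 1 rose and 2 fell with palbociclib, by limma on log2(FPKM + 1) at a Benjamini-Hochberg adjusted p under 0.05. Over the 15869 genes tested, 20.9% rose and 22.9% fell by the same rule. With normalizations that assume a like distribution or a like median in every library, the rises made up more of the called genes, 61.6% with quantile normalization and 68.9% with median centring against 47.7% here, and the calls and directions of all 4 members stayed as they were. The groups did not overlap for 3 members, against 54.7% of all genes tested. In these bulk samples, fewer cells of a type and less RNA per cell cannot be told apart.

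**Figure D1:**
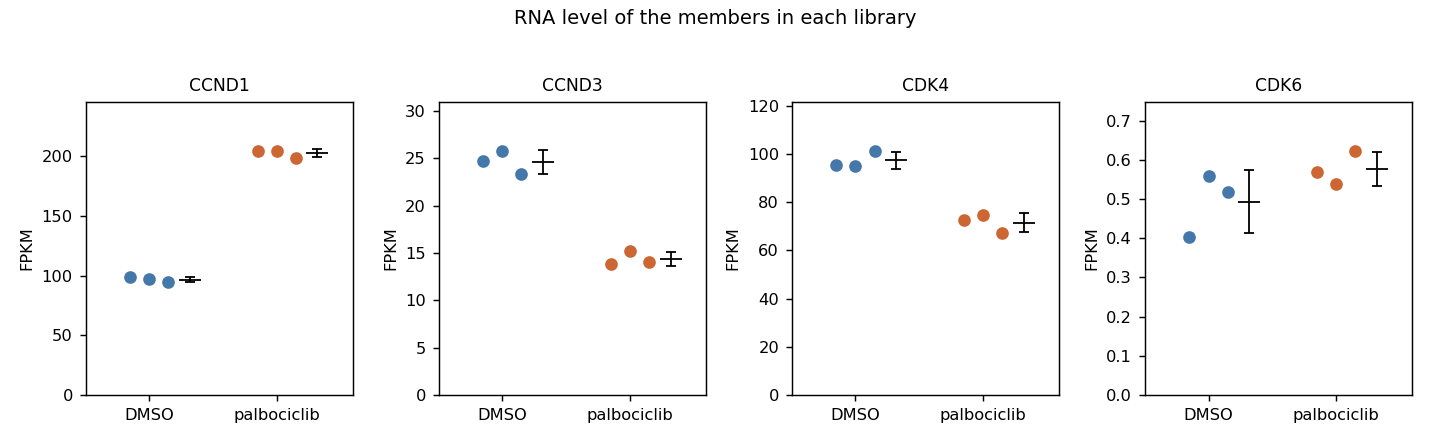
RNA level in FPKM (vertical axis, from 0, with its own scale in each panel) of CCND1, CCND3, CDK4 and CDK6 in 3 DMSO and 3 palbociclib libraries. Points are libraries and black marks are means with SD. CCND1 lies at 94.3 to 98.7 in DMSO and 199 to 205 with palbociclib, CCND3 and CDK4 lie lower with palbociclib, and the CDK6 groups overlap.

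CCND1 encodes cyclin D1, the D-type cyclin most tied to luminal breast cancer, and its gene (ENSG00000110092) spans 69641156 to 69654474 on chromosome 11 in GRCh38.p14. Its RNA was 98.7, 97.2 and 94.3 FPKM in the DMSO libraries and 205, 205 and 199 FPKM in the palbociclib libraries. Every palbociclib library lay above every DMSO library, and the libraries of a group differed by only a few FPKM. The mean went from 96.7 ± 2.25 to 203 ± 3.52 FPKM (SD, n = 3 each), a 2.09-fold rise. The log2 change was 1.06 (SE 0.03, 95% interval 0.99 to 1.13, limma adjusted p = 2.89e-08). Among the 15869 genes tested, CCND1 had the highest moderated statistic of limma, at rank 1, and its log2 change was the 19th from the highest. Counting changes in either direction, 2.94% of the genes had a larger one. The added 1 FPKM shrinks changes of weakly expressed genes more than that of CCND1, which can raise its place by size of change. The same holds for the shares given for CCND3 and CDK4 below. In absolute terms its gain of 106 FPKM had rank 68. The authors' deposited table gives a log2 change of 1.07 with a standard error of 0.04 for CCND1, and in that table its Wald statistic of 29.9 is likewise the highest of 19460.

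CCND3 encodes cyclin D3, which can stand in for cyclin D1 in many cell types. The gene (ENSG00000112576) spans 41934933 to 42050035 on chromosome 6, on the minus strand. Its RNA was 24.7, 25.8 and 23.3 FPKM in DMSO and 13.9, 15.2 and 13.997 FPKM with palbociclib. All 3 palbociclib libraries lay below the lowest DMSO library, the opposite order to CCND1. The mean fell from 24.6 ± 1.24 to 14.4 ± 0.752 FPKM (SD, n = 3 each), and the DMSO level was 1.71 times the palbociclib level. By limma the log2 change was -0.74 (SE 0.05, interval -0.86 to -0.62, adjusted p = 1.19e-05). A larger absolute log2 change was found in 5.51% of the genes tested.

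The CCND3 transcripts begin at several starts. Junction reads from 2 first exons into the exon at 41940370 to 41940585 compare these 2 where they join it directly. This comparison was chosen after the data were seen. The start listed at 41939205 lies past that exon in the direction of transcription, so its transcripts give no such reads. Transcripts that pass from the far first exon through an exon at 42030009 to 42030190 are also left out. That exon had 3, 2 and 1 inclusion reads in DMSO and 4, 3 and 1 with palbociclib. The near first exon (41941452 to 41941808) gave 102, 176 and 93 junction reads in DMSO and 43, 78 and 57 with palbociclib. The far first exon (42048501 to 42048676) gave 9, 9 and 3 reads in DMSO and 3, 3 and 10 with palbociclib. Most CCND3 junction reads into the exon at 41940370 to 41940585 therefore came from the near start in all 6 libraries. The far exon's share was 8.11%, 4.86% and 3.12% in DMSO and 6.52%, 3.70% and 14.9% with palbociclib. The exact Clopper-Pearson 95% intervals, which cover counting error only, ran from 1.37% to 17.9%, 0.770% to 10.4% and 7.40% to 25.7% in palbociclib libraries 1 to 3, and in DMSO from 3.77% to 14.8%, 2.25% to 9.03% and 0.649% to 8.86%. The means were 5.37 ± 2.53% and 8.38 ± 5.84% (SD, n = 3 each), a difference of 3.02 percentage points (exact permutation test, two-sided, p = 0.60), and the groups overlapped. Without the third palbociclib library the difference was -0.25 percentage points. At this depth a shift between the starts was not detectable.

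The RefSeq promoter sequences (GRCh38.p14) of these 2 starts are shown because the near one gave most of the CCND3 junction reads compared above. Each gives the 250 bases before the start in the direction of transcription, from chr6:41941809-41942058 and chr6:42048689-42048938, both read on the minus strand, with GC boxes (GGGCGG on either strand) in capitals.
CCND3 near start: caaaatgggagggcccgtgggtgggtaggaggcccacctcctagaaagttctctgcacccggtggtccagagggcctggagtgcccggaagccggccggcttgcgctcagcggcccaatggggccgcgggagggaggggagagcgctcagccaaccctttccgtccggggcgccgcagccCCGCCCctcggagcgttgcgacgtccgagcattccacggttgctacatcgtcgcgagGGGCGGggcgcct
CCND3 far start: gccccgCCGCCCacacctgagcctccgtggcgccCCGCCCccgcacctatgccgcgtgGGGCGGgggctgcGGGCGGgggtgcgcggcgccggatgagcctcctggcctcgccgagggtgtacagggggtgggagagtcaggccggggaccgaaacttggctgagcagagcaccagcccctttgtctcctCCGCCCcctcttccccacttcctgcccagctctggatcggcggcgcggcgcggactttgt
The near promoter holds 2 GC boxes, 70 and 13 bases before the start, and 1 CCAAT box 136 bases before it, while the far promoter holds 5 GC boxes and 0 CCAAT boxes. Of 35116 promoter windows of the same length, 42.6% hold the letters GGGCGG and 32.01% hold CCAAT, in each case on either strand. Such matches describe the letters and not a bound site.

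CDK4 is one of the kinases that palbociclib inhibits. Its gene (ENSG00000135446) spans 57747727 to 57752310 on chromosome 12, on the minus strand. CDK4 RNA was 95.6, 95.1 and 101 FPKM in DMSO and 72.5, 74.8 and 67.2 FPKM with palbociclib. The highest palbociclib library lay below the lowest DMSO library. The mean fell from 97.4 ± 3.52 to 71.5 ± 3.88 FPKM (SD, n = 3 each), and DMSO was 1.36 times palbociclib. By limma the log2 change was -0.44 (SE 0.05, interval -0.55 to -0.34, adjusted p = 0.000115), and 14.1% of tested genes had a larger absolute change. The fall of CDK4 was therefore smaller on the log2 scale than that of CCND3, with 95% intervals that do not overlap, although the difference between the 2 changes was not itself tested.

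CDK4 shares 2493 bases, 54.4% of its span, with TSPAN31, a tetraspanin gene (57745039 to 57750219) on the plus strand. TSPAN31 went from 57.9, 56.7 and 51.3 FPKM in DMSO to 98.1, 83.1 and 83.9 FPKM with palbociclib (log2 change 0.66, SE 0.07, limma adjusted p = 0.000127). The neighbours thus moved in opposite directions. The counting strand is not given in the sources used here, so reads of the shared part may be credited to either gene.

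The 250 bases before the RefSeq start of CDK4 are shown because this window lies wholly inside the most accessible peak of the 5 loci, described further on. It is chr12:57752311-57752560 of GRCh38.p14, read on the minus strand, with E-boxes (CACGTG), the motif that MYC and MAX bind, in capitals.
CDK4 promoter: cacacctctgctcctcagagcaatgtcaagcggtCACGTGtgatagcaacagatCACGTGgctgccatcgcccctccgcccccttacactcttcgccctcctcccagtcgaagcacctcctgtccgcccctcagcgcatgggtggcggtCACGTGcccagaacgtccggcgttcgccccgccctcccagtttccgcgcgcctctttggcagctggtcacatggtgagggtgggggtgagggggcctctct
It holds 3 E-boxes, which begin 216, 196 and 101 bases before the start, and 3 GC boxes. At least 1 such E-box is present in 6.34% of the 35116 promoter windows. The 3 CCND3 and 2 CDK6 promoter windows of the table hold 0 E-boxes.

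CDK6 is the other kinase inhibited by palbociclib and predominates over CDK4 in many blood cells. The gene (ENSG00000105810) spans 92604921 to 92836573 on chromosome 7. Its RNA was 0.404, 0.558 and 0.518 FPKM in DMSO and 0.570, 0.538 and 0.624 FPKM with palbociclib. These levels are near the filter of 0.5 FPKM and the groups overlapped. The log2 change of 0.08 (SE 0.08, 95% interval -0.11 to 0.27, limma adjusted p = 0.479) did not pass, and the added 1 FPKM shrinks changes at this level. The authors' deposited table gives CDK6 a log2 change of 0.23 with an adjusted p of 0.26.

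In DMSO the order of levels was CDK4, CCND1, CCND3 and CDK6, with CDK4 and CCND1 overlapping between libraries. Among the DMSO levels of all tested genes, CCND1 was at percentile 94.1, CDK4 at 94.2, CCND3 at 74.1 and CDK6 at 1.29. Genes averaging under 0.5 FPKM were not tested, so the CDK6 percentile is set by that filter. With palbociclib the order became CCND1, CDK4, CCND3 and CDK6, and no neighbours overlapped. CCND1 made up 80.0%, 79.0% and 80.2% of the summed CCND1 and CCND3 RNA in DMSO and 93.7%, 93.1% and 93.4% with palbociclib. The CCND1 share thus rose by 13.7 percentage points, from 79.7 ± 0.615% to 93.4 ± 0.296% (SD, n = 3 each, exact permutation test, two-sided, p = 0.10). No smaller p can be had from 3 against 3 libraries. As CCND1 and CCND3 each separated the groups, in opposite directions, the share had to do so too, and this test adds nothing to theirs. CCND1 RNA was 3.93 ± 0.147 times CCND3 RNA in DMSO and 14.1 ± 0.673 times with palbociclib.

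The sum of CCND1 and CCND3 went from 121 ± 3.23 to 217 ± 3.87 FPKM (SD, n = 3 each), since the gain of CCND1 was far larger than the loss of CCND3. CDK4 and CDK6 together went from 97.9 ± 3.54 to 72.1 ± 3.84 FPKM. The cyclin to kinase ratio was 1.28, 1.29 and 1.15 in DMSO and 2.99, 2.92 and 3.13 with palbociclib. Its log2 value rose by 1.28, from 0.31 ± 0.09 to 1.59 ± 0.05 (SD, n = 3 each, exact permutation test, two-sided, p = 0.10, the smallest possible). Both sums separated the groups, in opposite directions, so this p was fixed by them. CDK4 supplied nearly all kinase RNA in both groups, at 99.5 ± 0.082% in DMSO and 99.2 ± 0.105% with palbociclib (exact permutation p = 0.10). These are ratios of RNA levels, and protein was not measured in the files.

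**Figure D2:**
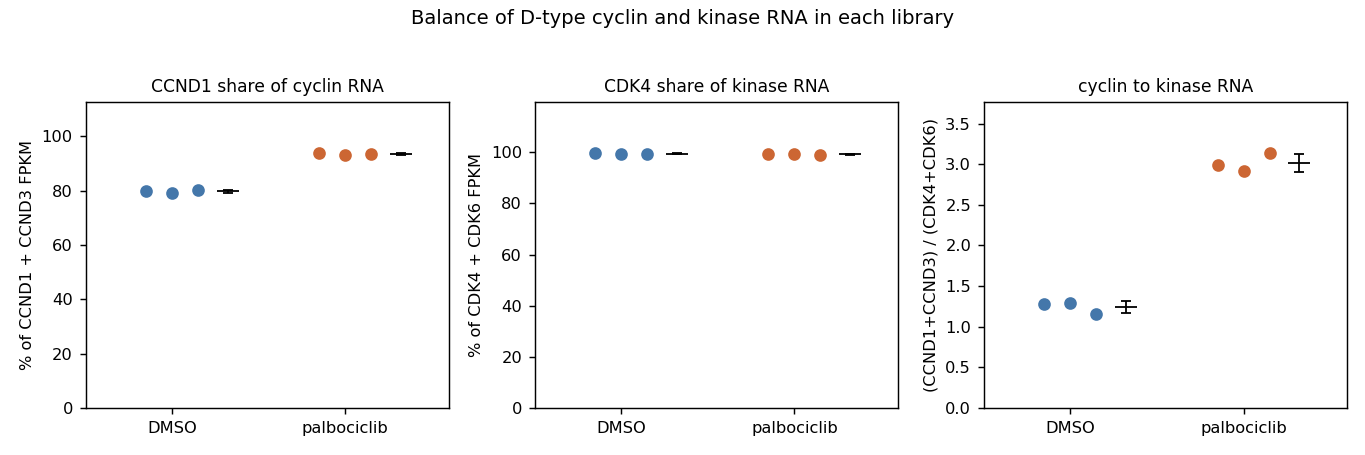
CCND1 as a percentage of CCND1 plus CCND3 FPKM, CDK4 as a percentage of CDK4 plus CDK6 FPKM, and the ratio of the cyclin sum to the kinase sum, per library (points) with mean and SD (black). The CCND1 share lies at 79.0% to 80.2% in DMSO and 93.1% to 93.7% with palbociclib, the CDK4 share stays above 99%, and the ratio goes from 1.15 to 1.29 up to 2.92 to 3.13.

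The genes whose levels followed each member most closely over the 6 libraries were found by Pearson's r on log2(FPKM + 1) among 12933 genes, as a description. RASSF7, SRARP and TUBG2 were nearest to CCND1, each with an r of 0.999, and 225 genes were above 0.99. For CCND3 they were ZWILCH (r of 1.00), a kinetochore protein, HUNK and LINC02864 (0.999 each), with 189 genes above 0.99. MACROH2A2, a histone variant, and PIP4P1 (both 0.999) and CDK5R1 (0.997) were nearest to CDK4, with 67 genes above 0.99. All points share the split into 2 treatments, which alone gives a high r to any gene with a clear change. RASSF7 went from 17.5 to 23.4 FPKM, ZWILCH from 21.8 to 8.83 FPKM and MACROH2A2 from 20.6 to 16.9 FPKM, so genes alike in pattern differed in the size of their change.

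The rest of the pathway was read from lists by role, all by limma at an adjusted p under 0.05 and beside a median log2 change of 0.0023 over all genes tested. The lists hold 6, 3, 8, 6, 11 and 14 tested genes, in the order described below. Over all 6 lists, 8 genes rose and 19 fell, while over all genes tested 20.9% rose and 22.9% fell. This balance depends on the scaling, since 15 rose and 16 fell with quantile normalization and 15 rose and 15 fell with median centring. In the CDK inhibitors, proteins that block cyclin and CDK complexes, 0 rose and 5 of 6 tested genes fell, with a median log2 change of -0.71. CDKN2C, the INK4 inhibitor p18, went from 22.2 ± 0.837 to 4.98 ± 0.437 FPKM (SD, n = 3 each, log2 change -1.96, limma adjusted p = 5.76e-08). CDKN2D, the INK4 inhibitor p19, went from 7.72 to 3.60 FPKM (log2 change -0.93) and CDKN1A, the CIP/KIP inhibitor p21, from 17.7 to 8.92 FPKM (log2 change -0.92). CDKN2B had a log2 change of 0.18 that did not pass, and CDKN1C was below the filter.

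The RB family, the substrates of these kinases, had 2 of 3 genes lower and 0 higher, with a median of -0.58. RBL1, which encodes p107, went from 9.59 to 2.14 FPKM (log2 change -1.75) and RB1 from 25.6 to 16.8 FPKM (log2 change -0.58). RBL2, which encodes p130, had a log2 change of -0.012 that did not pass. Of 8 E2F-driven G1/S genes, 7 fell and 0 rose, with a median of -1.98. CCNA2, the S phase cyclin A2, went from 45.4 to 2.49 FPKM (log2 change -3.73), CCNE2, cyclin E2, from 31.8 to 1.61 FPKM (-3.65) and E2F1 from 31.5 to 3.34 FPKM (-2.91). CCND1 rose in the libraries in which these E2F-driven genes fell.

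The next lists hold genes that assemble, activate or break down the cyclin and kinase complexes, and genes that induce the cyclins. Of 6 genes for the CDK-activating kinase and chaperones, 1 rose and 2 fell, with a median of -0.08. HSP90AA1, a chaperone, went from 1000 ± 78.2 to 606 ± 49.9 FPKM (log2 change -0.72), CDC37, the chaperone partner that loads kinases such as CDK4, from 78.5 to 89.4 FPKM (0.18) and MNAT1, a subunit of the activating kinase, from 40.4 to 36.6 FPKM (-0.14). Of 11 genes for the turnover of D-type cyclins, 1 rose and 2 fell, with a median of 0.03, shares no higher than the 20.9% and 22.9% over all genes tested. SKP1, a ubiquitin ligase adaptor, had a log2 change of 0.10 and CUL1, a ligase scaffold, one of -0.18, while the gene of the cyclin D degrader AMBRA1 had one of 0.11 that did not pass. Of 14 tested inducers of D-type cyclin transcription, 6 rose and 1 fell, with a median of 0.07. JUN, an AP-1 subunit, went from 9.26 to 14.5 FPKM (log2 change 0.59), GATA3, a luminal lineage factor, from 391 to 464 FPKM (0.25) and RELA, an NF-κB subunit, from 43.5 to 49.2 FPKM (0.17).

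**Figure D3:**
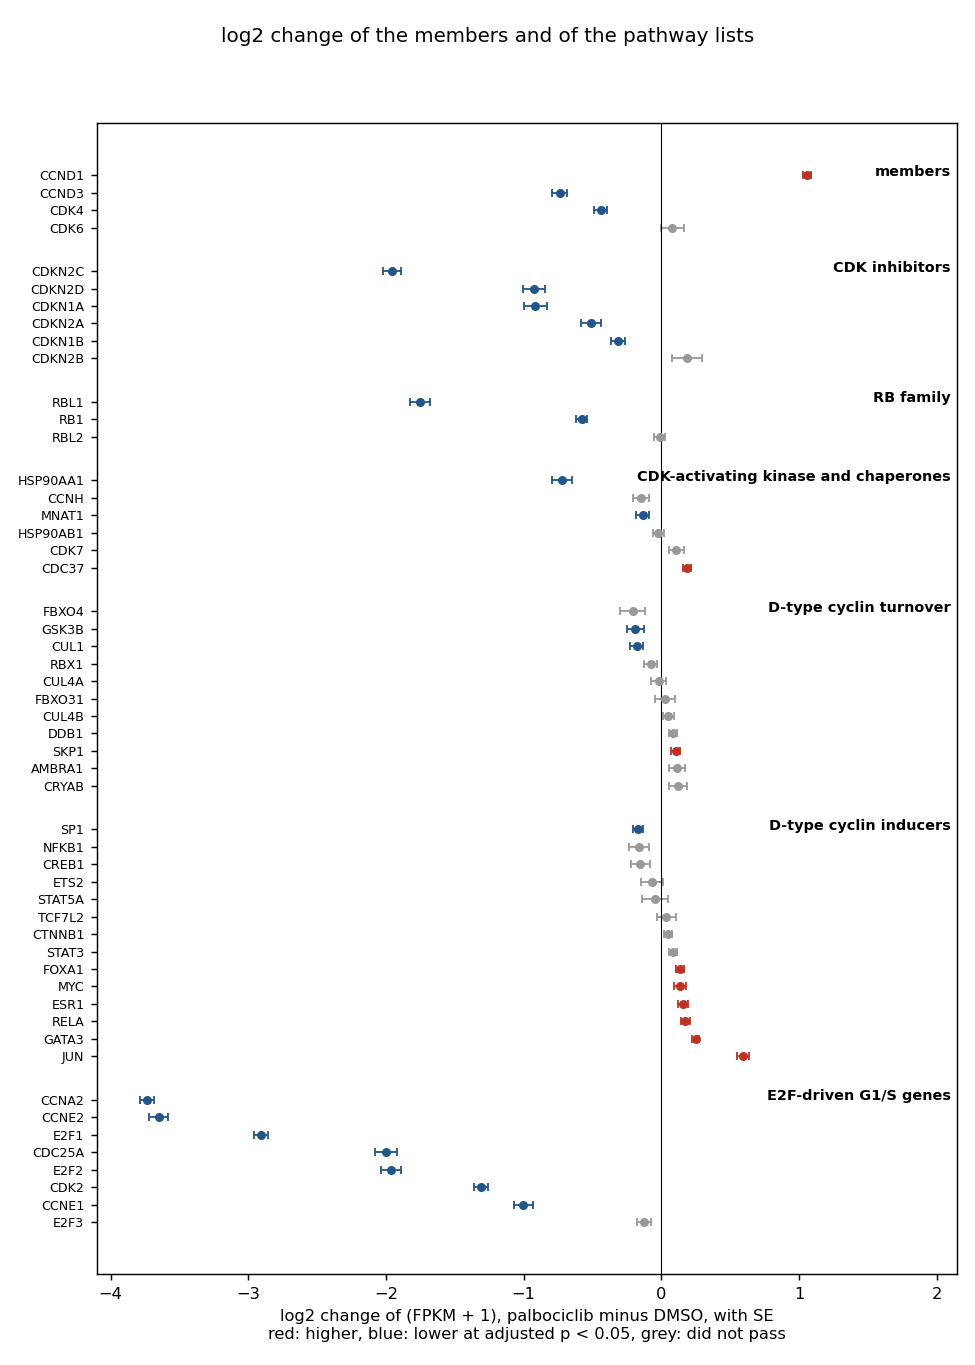
log2 change of (FPKM + 1), palbociclib minus DMSO, with SE (horizontal axis) for the 4 measured members and each tested gene of the 6 lists, sorted within each list (n = 3 libraries per group). CCND1 is at 1.06, the inhibitors reach -1.96 and the E2F-driven genes -3.73, while turnover genes lie between -0.21 and 0.12.

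Splicing was compared in read counts for including or skipping a part of the transcript, with the edgeR quasi-likelihood test. Of the 36 listed events, 5 belong to CCND1, 7 to CCND3 and 24 to CDK4, and 7 passed the filter, an average of at least 20 reads and at least 5% of them from the rarer form. By edgeR, 0 of these 7 had an adjusted p under 0.05, against 0.363% of the 37445 events tested in all, and 0 had an unadjusted p under 0.05. That overall share rests on 136 called events, a count that was 59 to 128 without 1 library, 44 with no filter on the rarer form and 249 with a replicate block. Groups did not overlap for 1 of the 7 tested events, against 13.7% of all events tested. The largest of the read sets was that of CCND1 exons at 69643031 to 69643246 and 69643832 to 69643991, treated as alternatives to each other, with 6141 reads per library on average. The level of the first exon was 0.53 ± 0.0235 in DMSO and 0.531 ± 0.00353 with palbociclib (SD, n = 3 each, edgeR adjusted p = 1.00). Counted as skipped exons, both were included at 0.998 to 1 in every library. The level of the pair therefore compares reads of exons kept in nearly all transcripts, and is not a share of transcripts choosing between them.

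The tested CDK4 event whose groups did not overlap was retention of the intron at 57751343 to 57751499. Its level was 0.025, 0.022 and 0.027 in DMSO and 0.030, 0.028 and 0.032 with palbociclib, so a few percent of the reads per length kept it in every library. The log2 odds change was 0.31 (SE 0.17, edgeR adjusted p = 0.634), which did not pass. The 5 CDK4 exon-pair events had log2 odds changes between -0.04 and 0.06, with adjusted p of 0.924 to 0.982 by edgeR. Of these, the pairs with most reads were 57750923 to 57751090 with 57751207 to 57751342, at 3858 reads per library, and 57750656 to 57750765 with 57750923 to 57751090, at 3020. The next was 57750656 to 57750765 with 57751207 to 57751342, at 2884 reads. The changes in CCND1 and CDK4 RNA level came with no called change in the events that could be tested. Counted as skipped exons, the exons of the tested CDK4 pairs were included at 0.98 to 1. The exon-pair events of both genes thus compared exons kept in nearly all transcripts and could hardly show a change in splicing. Apart from them, the only tested event was the retained CDK4 intron. The authors' deposited table has 1 event of these genes at an FDR under 0.05, a CDK4 exon at 57750442 to 57750563 with an FDR of 0.00249. Its level was 0.374, 0.622 and 0.309 in DMSO and 1, 0.744 and 1 with palbociclib. The event rests on 11 reads per library on average and was under the read minimum here.

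ATAC-seq, which counts insertions of the Tn5 transposase into open chromatin, was compared peak by peak with edgeR. Within 10 kb of the 5 loci there were 17 peaks, of which 3 rose and 1 fell at an adjusted p under 0.05. Over all 38121 peaks, 5.41% rose and 6.46% fell by this rule, and scaling by library totals gave 55.9% rises among the called peaks against 45.5% here. The groups did not overlap for 7 of the 17 peaks, against 28.3% of all peaks. The median log2 change of the 17 peaks was 0.05 beside 0.0043 over all peaks.

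The promoter peaks, defined as within 1 kb of a RefSeq start, did not pass at any of the 3 genes that have one. At CCND1 the peak at 69641067 to 69641477, which covers the start and 322 bases of the first exon, was 60.9, 60.4 and 63.4 CPM (counts scaled to the total in peaks and by TMM, a per-library rate) in DMSO and 60.9, 56.5 and 58.8 CPM with palbociclib. Its groups overlapped and the log2 change was -0.07 (SE 0.06, edgeR adjusted p = 0.53), in the gene whose RNA went up 2.09-fold. The CDK4 promoter peak at 57751991 to 57752791, which holds the E-box window printed above, was 252, 242 and 245 CPM in DMSO and 235, 229 and 237 CPM with palbociclib. It was at percentile 99.7 of all peaks for its level, its groups did not overlap and its log2 change was -0.07 (SE 0.04, edgeR adjusted p = 0.268). The CCND3 peak at 42050299 to 42050962 lies 264 bases from the farthest CCND3 start. An end of the TAF8 span, at 42050524, lies inside this peak. Whether the peak serves CCND3 or TAF8 was not tested. It had means of 57.5 ± 1.55 and 58.5 ± 3.63 CPM (SD, n = 3 each, edgeR adjusted p = 0.834).

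The near CCND3 start, which supplied most of the junction reads compared above, had its nearest peak 5043 bases away, and the far start 1611 bases away. Accessibility outside the authors' peak set was not measured here, so a start without a peak need not be closed. Neither CDK6 start had a peak within 1 kb, and the closest lay 23805 bases from a start. In DMSO, 5 of the 6 CDK6 peaks had means of 3.53 to 8.84 CPM, while the other, near the far end of the gene, had 42.7 CPM.

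The peak that fell lies in CCND1, at 69643250 to 69643866. It begins 4 bases after the second exon, covers intron sequence and ends 35 bases into the next exon. Its values were 39.7, 40.7 and 42.6 CPM in DMSO and 32.5, 31.97 and 30.7 CPM with palbociclib. All palbociclib libraries were below all DMSO libraries, with a gap wider than the spread within either group. The mean went from 41.0 ± 1.45 to 31.7 ± 0.918 CPM (SD, n = 3 each), and the log2 change was -0.37 (SE 0.08, edgeR adjusted p = 0.000321). This peak fell while CCND1 RNA rose. The neighbouring peak at 69644094 to 69644768, in the following intron, stood at 0.06 on the log2 scale (adjusted p = 0.628 by edgeR), the upstream peak at 69636329 to 69637090 stood at 0.05 (0.664), and neither passed.

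The 3 peaks that rose each lost the call in at least 1 alternative. A CCND3 peak at 42045529 to 42046298, in the long intron after the far first exon, was 32.8, 37.5 and 36.0 CPM in DMSO and 41.2, 47.8 and 37.8 CPM with palbociclib. The groups just missed each other, and the log2 change was 0.25 (SE 0.08, edgeR adjusted p = 0.0235). It did not pass with DESeq2 (adjusted p = 0.0933), nor without DMSO replicate 1 (0.136) or 3 (0.0628) or palbociclib replicate 2 (0.263) by edgeR, and without that last library the log2 change was 0.15. This rise stood beside a fall of CCND3 RNA.

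The peak at 57754475 to 57754995, 2165 bases before CDK4, lies nearer to MARCHF9, whose span has an end at 57755103. Its values were 72.1, 72.5 and 71.6 CPM in DMSO and 86.0, 89.0 and 76.0 CPM with palbociclib. The DMSO libraries lay close together and all palbociclib libraries above them (log2 change 0.22, SE 0.06, edgeR adjusted p = 0.00821). By edgeR it did not pass without palbociclib replicate 1 (adjusted p = 0.0658) or 2 (0.0811). The CDK6 peak at 92652564 to 92652951, within the gene, was 6.21, 6.03 and 4.51 CPM in DMSO and 7.84, 7.48 and 8.48 CPM with palbociclib (log2 change 0.50, SE 0.16, edgeR adjusted p = 0.0329). It rests on 64 to 128 reads per library, and its call was lost with DESeq2 (adjusted p = 0.0959) and by edgeR without DMSO replicate 2 (0.0528) or 3 (0.214) or palbociclib replicate 1 (0.0828) or 3 (0.0877).

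**Figure D4:**
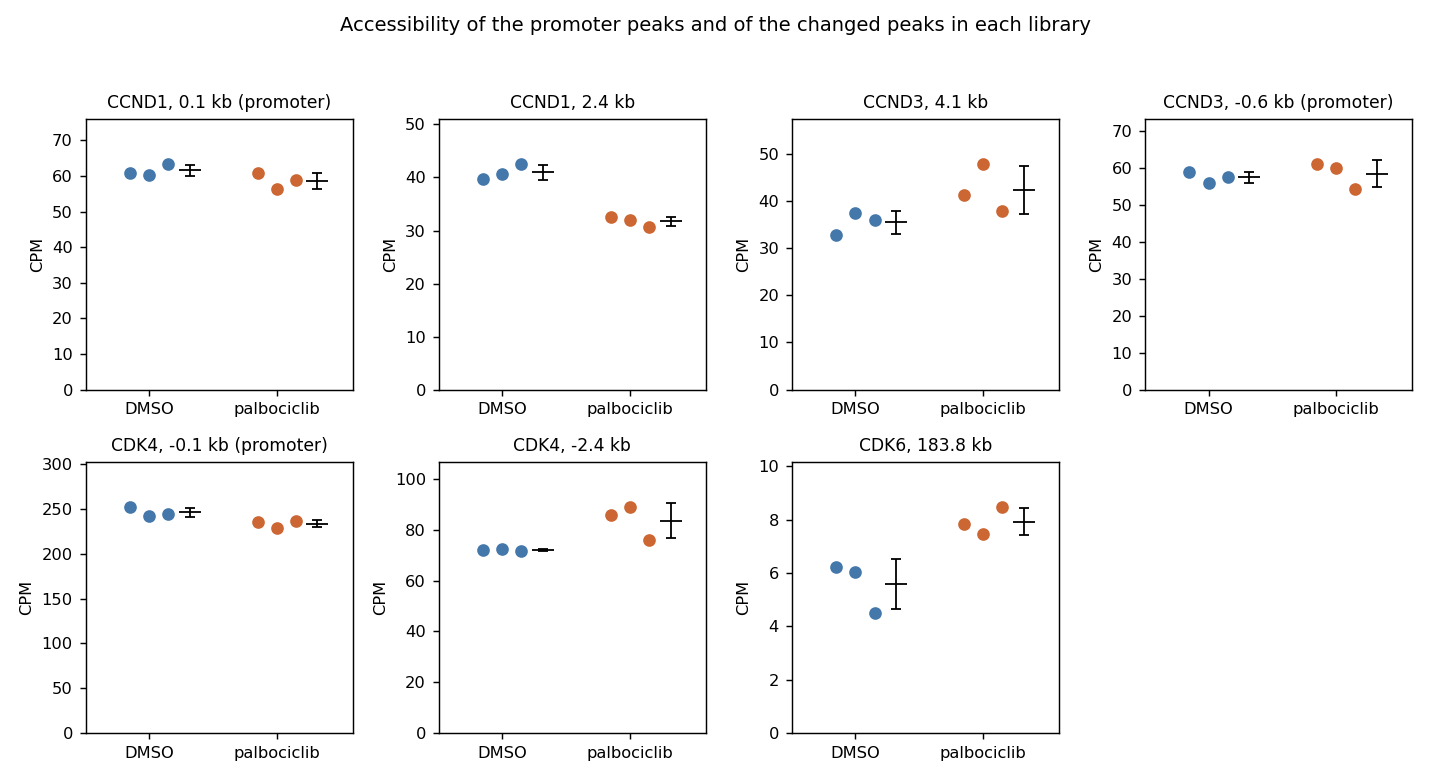
Accessibility in CPM (vertical axis, from 0, own scale per panel) of the 3 promoter peaks and the 4 peaks with an edgeR adjusted p under 0.05, per library (points) with mean and SD (black). Panel titles give the gene and the distance of the peak's centre from the 5′ end of the gene span. The CCND3 promoter peak holds an end of TAF8, and the CDK4 peak that rose lies nearer to MARCHF9 than to CDK4. The CCND1 peak inside the gene drops from 41.0 to 31.7 CPM while the CCND1 promoter peak overlaps between groups.

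CCND2 encodes cyclin D2, and its gene spans 4273762 to 4305353 on chromosome 12. No peak lay in the span, and the single peak within 10 kb, at 4307740 to 4308550, had 23.3 ± 1.21 CPM in DMSO and 24.2 ± 0.923 CPM with palbociclib (SD, n = 3 each). Its log2 change of 0.05 (SE 0.09, edgeR adjusted p = 0.771) did not pass. At the other loci the peaks that did not pass ranged in log2 change from -0.10 to 0.23, both extremes being weak CDK6 peaks.

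**Figure D5:**
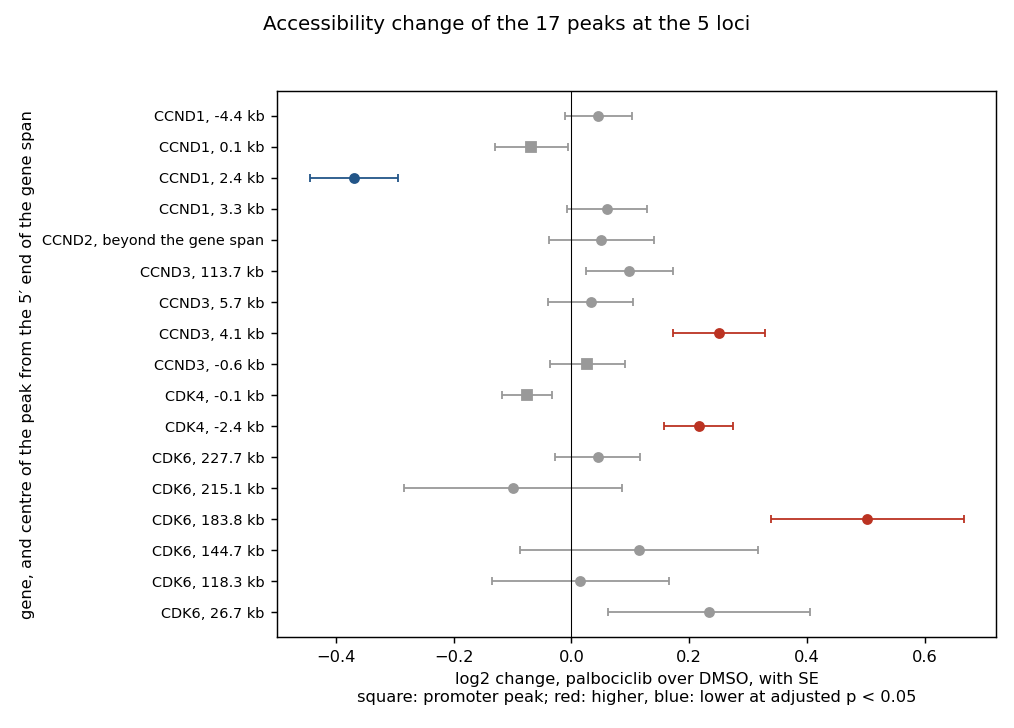
log2 change in accessibility with SE (horizontal axis) of the 17 peaks within 10 kb of the 5 genes, labelled by gene and by the distance of the peak's centre from the 5′ end of the gene span (n = 3 libraries per group). The promoter peaks (squares) lie between -0.07 and 0.03, the CCND1 gene body peak is at -0.37 and the CDK6 peak at 0.50 has the largest rise. The CCND3 promoter peak holds an end of TAF8.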

How the data were processed

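The members and lists were chosen with earlier results of these data known. FPKM were deposited by the authors, and per the submitters' processing notes fastp 0.23.2, Salmon 1.10.2, STAR 2.7.10b and DESeq2 1.44.0 were used on GRCh38. The authors' deposited table gives a mean normalized count as a signal, a log2 fold change, a Wald statistic as a score and p-values. The splicing tables, per the file headers, hold junction and exon-body counts, with inclusion levels. For ATAC-seq the notes name Bowtie2 and MACS3. Counts were made by the authors over 1 peak set with featureCounts without an option for pairs, per the file headers, so they are reads. The counting strand and annotation are not given in the sources used here.

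The RNA test was limma 3.58.1 (R 4.3.3), fitted with a trend in the variance to log2(FPKM + 1), and genes averaging under 0.5 FPKM were left out. Peaks and splicing events were compared with the edgeR 4.0.16 quasi-likelihood test (TMM scaling and filterByExpr for peaks, and for events library terms and an inclusion by treatment term). DESeq2 1.42.0 was an alternative. p-values were adjusted by Benjamini-Hochberg over all features. Shares and ratios had exact permutation tests, two-sided. Promoters came from RefSeq (GRCh38.p14) for 3 of the 5 genes. Code was tested on simulated data.

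Named were the members, up to 3 genes per list with the largest absolute log2 change at an adjusted p under 0.05 and groups that do not overlap, the 3 genes nearest to each member above 1 FPKM by Pearson's r, events that passed and up to 3 tested events per gene with the most reads, and promoter peaks and peaks within 10 kb that passed. CDKN2B, CDKN1C, RBL2, AMBRA1, COL1A1, TSPAN31, the CDK4 exon and intron, the CCND3 first exons, the other peaks described and the motifs were chosen after their values were seen. Alternatives covered pseudocount, filters, scaling, test, threshold, window, a replicate block and leaving out each library.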

Additional observations from a re-analysis of the deposited data

How the results depend on the processing

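The RNA changes of CCND1, CCND3, CDK4 and CDK6 kept their direction and call in all 51 values of a gene under an alternative (CDK6 has none with a filter of 1 FPKM), with log2 changes of 1.04 to 1.155, -0.78 to -0.64, -0.47 to -0.35 and 0.04 to 0.20. With quantile normalization and with median centring 15 pathway genes rose, against 8, and median centring gave 5468 rises over all genes. With DESeq2, 981 peaks rose and 1533 fell, and at an adjusted p under 0.01 855 rose and 1328 fell, with 1 rising peak at the 5 loci in both cases. Leaving out 1 library gave 1103 to 1874 rising and 1557 to 2176 falling peaks, and 1 to 2 rising peaks at the loci, where windows of 100 kb held 3 falling peaks. The CCND1 peak fell under every alternative, by edgeR or DESeq2 adjusted p of 0.000291 to 0.00625. Without 1 library, the log2 change of the CCND3 promoter peak ranged from -0.0073 to 0.076. Of all splicing events, 44 were called with no filter on the minor form and 59 to 128 without 1 library, with 0 of the members' in each. The CCND1 exon pair's log2 odds change was -0.000135 with at least 50 reads and -0.057 to 0.080 without 1 library. Without 1 library, the CDK4 pairs 57750656 to 57750765 with 57751207 to 57751342, and 57750923 to 57751090 with 57751207 to 57751342, ranged from -0.044 to 0.074 and from -0.063 to 0.018. The far CCND3 exon's difference ranged from -0.25 to 5.36 percentage points. The cause was not tested.

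Replicate numbers gave no clear pairing of the samples. The deviations of same-numbered RNA libraries correlated at 0.11, -0.0051 and 0.09, against -0.14 to 0.05 for RNA libraries with different numbers. For ATAC-seq libraries the values were 0.0052, 0.04 and -0.03, against -0.07 to 0.06. The 0.11 and 0.09 are the highest of the RNA values, so a weak pairing of the RNA libraries is not excluded. A replicate block gave 3330 rising and 3633 falling genes, 2133 rising and 2470 falling peaks and 249 splicing events against 136, and an exact permutation p of 0.25 for the shares and the ratio, the smallest that 3 pairs allow. The total depth of the RNA libraries in reads is unknown, but it was not equal. The CCND1 exon at 69643031 to 69643246 had 2882, 4116 and 2290 inclusion reads in DMSO libraries 1 to 3, at similar CCND1 FPKM. With palbociclib it had 6238, 7040 and 7086. The authors' deposited mean normalized counts were 36358 for CCND1, 7290 for CDK4, 1729 for CCND3 and 343 for CDK6. Weak CDK6 RNA and peaks are the least precise values.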

Other observations

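Beyond 10 kb and within 100 kb of the 5 loci lie 28 further peaks, of which 1 rose and 2 fell by edgeR at an adjusted p under 0.05, close to the 5.41% that rose and 6.46% that fell over all peaks. A peak 11445 bases past the CDK4 span (57735815 to 57736282) went from 10.6, 8.997 and 10.7 CPM in DMSO to 6.92, 6.39 and 6.69 CPM with palbociclib, a log2 change of -0.59 (SE 0.15, edgeR adjusted p = 0.0041), and its groups did not overlap. On chromosome 6, a peak 79011 bases before the CCND3 span (42129046 to 42129614) went from 15.7 ± 0.406 to 19.5 ± 0.329 CPM (SD, n = 3 each, log2 change 0.31, edgeR adjusted p = 0.033), and one 38892 bases past the span, at an end of USP49, from 72.1 ± 5.12 to 61.2 ± 2.17 CPM (log2 change -0.23, edgeR adjusted p = 0.00665). Around CCND1, 10 peaks lay in that wider range and 0 passed. These peaks are listed by distance, and no link to a gene was measured.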
